A study of Mus musculus with 4 samples.

Results

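Radial glia are the stem cells of the embryonic cerebral cortex. The 10 genes examined here, *Nes*, *Vim*, *Fabp7*, *Slc1a3*, *Prom1*, *Cdh2*, *Hmga2*, *Ptn*, *Ddah1* and *Dbi*, encode proteins of the skeleton, surface, metabolism and growth control of these cells and of the neuroepithelial cells they arise from. They were chosen by symbol, as markers other than the patterning and neurogenic transcription factors, and all 10 were found among the 16449 genes of the count table. Of these, 9 passed the filter on low counts and belonged to the 5878 genes tested, while *Slc1a3* had too few counts and is given as values only.

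Neuroepithelial cells and radial glia line the ventricle, where belts of cadherin junctions hold their apical ends together, and send a process to the outer surface of the brain wall along which newborn neurons migrate. Their processes are filled with the intermediate filament proteins nestin and vimentin. As neuroepithelium turns into radial glia, the cells take up glial traits such as binding of fatty acids and uptake of glutamate, and they divide to give neurons, either directly or through intermediate progenitors, and later astrocytes.

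RNA came from the dorsal and medial pallium of mouse embryos at E11.5 and was read as poly(A)-enriched long reads on the Nanopore platform, in 2 libraries labelled WT and 2 labelled Tut1 KO. The study describes the knockout embryos as *Tut1* f/f;Emx1-Cre. In these, a knock-in Cre driver active in precursors of the dorsal forebrain removes exon 2 of a floxed *Tut1*. Its sequencing statistics list the controls as *Tut1* f/f, by which both groups carried the floxed alleles and differed by Cre. Elsewhere the study counts both *Tut1* f/+ and f/f as wild-type, and the labels say only WT. Cells outside the *Emx1* lineage, such as blood cells, vessels and microglia, keep the floxed gene intact. How many embryos entered each library is not given in the sources used here, and p-values therefore measure the spread between these libraries, which may be technical. The comparison here asked which genes differ in count when Tut1, a terminal uridylyltransferase that tails the spliceosomal U6 RNA, is lost from neural stem cells. The study sequenced these libraries to look for splicing defects, and it reported many dysregulated splicing events and few differentially expressed genes. Counts per gene do not show retained introns or exon choice, so an unchanged level does not show unchanged splicing.

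Total counts ranged from 305642 to 397150 per library, so that 1 count was worth 2.66 to 3.47 CPM (counts scaled to a common library size). The study's sequencing statistics list far more total reads for each library, so only a small part of the reads was counted. Genes with counts, 12442 and 12788 in WT and 13158 and 12522 in the KO-labelled libraries, equal the genes detected in those statistics. Why the other reads are missing from the counts is not given in the sources used here. Low counts below thus do not show the depth of sequencing. *Tut1* (ENSMUSG00000071645) had 6 and 11 counts in WT against 29 and 25 in the KO-labelled libraries. It was higher in the KO-labelled libraries, with a log2 fold change of 1.71 ± 0.40 (SE), which passed the edgeR test (adjusted p = 0.0113), and the adjusted p was 0.133 when WT replicate 1 was left out, 0.200 when KO replicate 1 was and 0.160 when KO replicate 2 was. Since the deletion takes out an exon and counts per gene cannot show whether it was present, these counts do not check the labels, and directions below follow them. WT replicate 1 was the only female library, with 64 counts of *Xist* and no counts of 4 Y-linked genes. The comparison among male libraries is thus the same as that without WT replicate 1. Of the defining genes of the dissected tissue, *Lhx2*, which specifies the cortex, had 348 and 272 counts in WT against 106 and 106 in the KO-labelled libraries and fell by 1.49 ± 0.18 on the log2 scale (adjusted p = 6.48e-07, but 0.0539 without KO replicate 1). *Emx1*, too low to test, had 6 and 7 counts in WT against 1 and 2, and *Emx2* had 48 and 62 against 23 and 31 (-0.96 ± 0.28, adjusted p = 0.0639). *Pax6*, a transcription factor of cortical progenitors, had 137 and 119 counts in WT against 132 and 93, with overlapping groups (-0.14 ± 0.19, adjusted p = 0.816).

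No member of the group passed the test. With an adjusted p below 0.05 over all tested genes, 0 of the 9 tested members were called, beside 2.06% of all genes (121 of 5878). Of all tested genes, 1.4% were called higher and 0.663% called lower in the KO-labelled libraries. By unadjusted p below 0.05, 1 member (*Ddah1*) was below the threshold, beside 14.2% of all tested genes. DESeq2, which gave no adjusted p for *Fabp7*, *Ptn*, *Dbi* and *Tut1*, called 0 members and had 0 at the unadjusted threshold, and limma-voom called 0 with 1 at that threshold. The median log2 fold change of the 9 tested members was 0.11, beside -0.01 over all genes tested, with 7 values above 0 and 2 below. Both KO-labelled libraries lay above each WT library for *Fabp7* and *Ddah1* and below them for *Prom1*, while among all tested genes 22.1% were separated upward and 20.8% downward. Counts were low, between 1 and 111 per library, and for 8 of the 10 genes the larger of the gaps between replicates exceeded the gap between the group means on the log2 scale. The exceptions were *Prom1* and *Ddah1*.

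**Figure D1:**
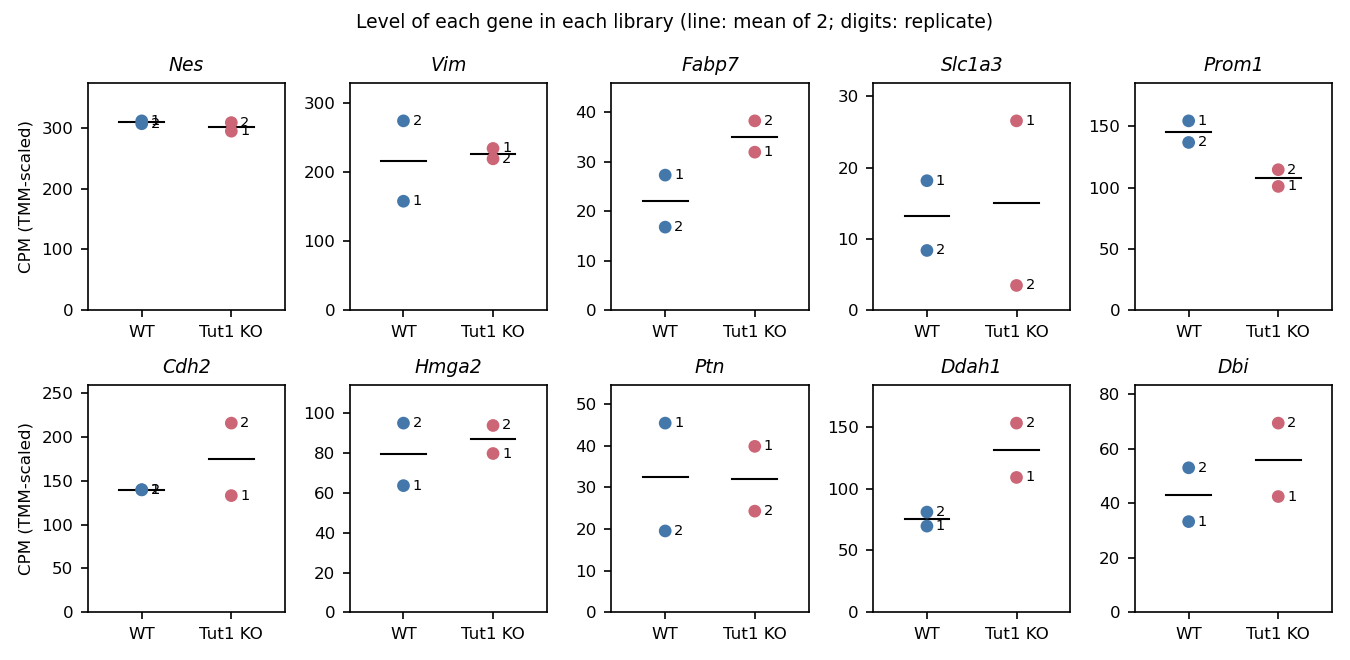
Level of each of the 10 genes in CPM on TMM-scaled library sizes (vertical axis, starting at 0, with its own range in each panel) in the 2 WT and the 2 Tut1 KO libraries. Points are libraries, digits are replicate numbers and lines are group means. The groups do not overlap for *Fabp7* and *Ddah1* (higher in KO) and *Prom1* (lower in KO), and they overlap for the other 7 genes.

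The filament genes gave values close to 0. *Nes* (chromosome 3, 87971078 to 87980451, GRCm38) encodes nestin, an intermediate filament protein used as a marker of neural stem cells but not limited to them. It had 103 and 110 counts in WT against 111 and 89 in the KO-labelled libraries. Scaled for depth, these were 312 and 307 CPM against 295 and 309 CPM, the tightest agreement over all 4 libraries among the 10 genes. The group means were 309.6 ± 3.4 and 302 ± 10 CPM (mean ± SD, n = 2 each), and the log2 fold change was -0.04 ± 0.19 (95% interval -0.42 to 0.35, adjusted p = 0.958). On the linear scale, the interval reached from 0.747 to 1.27 of the WT level.

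*Vim* (chromosome 2, 13573927 to 13582826) encodes vimentin, which forms mixed filaments with nestin. Its 52 and 98 counts in WT spanned its 88 and 63 counts in the KO-labelled libraries. WT replicate 1 stood below the other 3 libraries, at 158 CPM against 219 to 274 CPM. The means were 216 ± 82 and 226 ± 11 CPM, and the log2 fold change was 0.06 ± 0.23 (interval -0.40 to 0.53, adjusted p = 0.945). Its sign changed with the WT library left out. It was -0.28 without WT replicate 1 and 0.51 without WT replicate 2.

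The genes that tie such filaments and actin to membranes and nucleus did not pass the test either, with 0 of 9 tested members (11 listed) called and a median log2 fold change of 0.12. Those with the smallest p were *Lmnb1*, encoding lamin B1 of the nuclear envelope, and *Rdx*, encoding the membrane-actin linker radixin. *Lmnb1* had 37 and 38 counts in WT against 29 and 26 in the KO-labelled libraries (log2 fold change -0.39 ± 0.29, adjusted p = 0.597). *Rdx* had counts of 20 and 25 against 28 and 29 (0.40 ± 0.32, adjusted p = 0.646).

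At the apical surface, the members gave values on either side of 0. *Prom1* (chromosome 5, 43993620 to 44102032) encodes prominin-1, a pentaspan glycoprotein of apical membrane protrusions. It had 51 and 49 counts in WT against 38 and 33 in the KO-labelled libraries, or 154 and 137 CPM against 101 and 115 CPM. Both KO-labelled libraries were thus below both WT libraries, at means of 146 ± 12 and 108 ± 10 CPM. Its log2 fold change was -0.44 ± 0.26 (interval -0.97 to 0.09, adjusted p = 0.488), and it stayed between -0.54 and -0.34 when any library was left out. *Gm16401*, annotated on the opposite strand within the *Prom1* locus, had 9 and 11 counts in WT against 4 and 6 in the KO-labelled libraries. Whether counting used strand is not stated, so its reads and those of *Prom1* cannot be told apart with certainty.

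*Cdh2* (ENSMUSG00000024304) encodes N-cadherin, the adhesion protein of the apical belt. It had 46 and 50 counts in WT against 50 and 62 in the KO-labelled libraries. The WT libraries were nearly equal, at 139 and 139.7 CPM, and KO replicate 1 lay just below them at 133 CPM while replicate 2 lay above at 215 CPM. The log2 fold change of 0.29 ± 0.26 (interval -0.23 to 0.81, adjusted p = 0.687) thus rested on 1 library, and it was -0.07 without KO replicate 2.

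Among other genes of apical junctions and polarity, 12 of the 21 listed were tested and 1 was called, *Fat4*, which encodes a giant protocadherin of the apical membrane that binds Dchs1. *Fat4* had 71 and 67 counts in WT against 111 and 121 in the KO-labelled libraries. It rose by a log2 fold change of 0.82 ± 0.21 (adjusted p = 0.0266). This call was lost with DESeq2, with the replicate block (adjusted p = 0.0557), with the length trend removed, and whenever a library was left out (adjusted p 0.0712 to 0.388). The median log2 fold change of the list was 0.00, with 6 genes above 0 and 6 below.

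The members that handle lipids had few counts. *Fabp7* (chromosome 10, 57784881 to 57788450) encodes brain lipid-binding protein, a carrier of long-chain polyunsaturated fatty acids and a marker of radial glia. It had 9 and 6 counts in WT against 12 and 11 in the KO-labelled libraries, or 27.3 and 16.8 CPM against 31.9 and 38.2 CPM. Both KO-labelled libraries were above both WT libraries, at means of 22.0 ± 7.4 and 35.1 ± 4.5 CPM. Its log2 fold change of 0.66 ± 0.50 had an interval from -0.36 to 1.68 (adjusted p = 0.618), so that neither a slight fall nor a rise of 3.21-fold lay outside it. It was 0.33 without WT replicate 2 and 1.02 without WT replicate 1.

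*Dbi* (chromosome 1, 120113280 to 120121078) encodes the acyl-CoA binding protein, also known as diazepam binding inhibitor, which carries activated fatty acids and gives rise to peptides that act on GABA-A receptors. It had 11 and 19 counts in WT against 16 and 20 in the KO-labelled libraries, and the groups overlapped. The means were 43.2 ± 14 and 56.0 ± 19 CPM, and the log2 fold change was 0.32 ± 0.40 (interval -0.48 to 1.12, adjusted p = 0.802). In each group replicate 2 was the higher library, at 53.1 and 69.5 CPM against 33.3 and 42.5 CPM in replicate 1. The log2 fold change was 0.70 without WT replicate 2 and -0.03 without KO replicate 2.

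In the rest of fatty acid and acyl-CoA handling, 8 of 15 genes were tested and 0 were called, with a median log2 fold change of -0.14. *Scd2*, encoding the stearoyl-CoA desaturase of the brain, had 38 and 75 counts in WT against 40 and 26 in the KO-labelled libraries (log2 fold change -0.72 ± 0.28, adjusted p = 0.197). *Acsl5*, encoding a long-chain acyl-CoA synthetase, had counts of 27 and 83 against 34 and 29 (-0.74 ± 0.32, adjusted p = 0.249). In both, WT replicate 2 stood well above the other 3 libraries. Without WT replicate 2 the value of *Scd2* was -0.23 (adjusted p = 0.855) and that of *Acsl5* was 0.20, and without WT replicate 1 both genes passed the threshold (adjusted p = 0.0473 for *Scd2* and 0.00637 for *Acsl5*).

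*Slc1a3* (chromosome 15, 8634124 to 8710764) encodes GLAST, the glutamate-aspartate transporter of radial glia and astrocytes. It had 6 and 3 counts in WT against 10 and 1 in the KO-labelled libraries, too few to be tested. The KO-labelled libraries held both the highest and the lowest value, 26.6 and 3.47 CPM, with WT at 18.2 and 8.38 CPM between them. Fitted without the filter, the log2 fold change was 0.31 ± 0.67, with an interval from -1.0 to 1.63 that left a change of 2-fold in either direction possible (adjusted p = 0.937 over the 15083 genes with counts). Leaving out 1 library moved it from -1.81 to 0.95.

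Of the genes that take up or convert glutamate and glutamine, 5 of 10 were tested and 1 was called. *Slc1a2* encodes GLT-1, which like GLAST removes extracellular glutamate and is best known from astrocytes. It had 5 and 6 counts in WT against 32 and 17 in the KO-labelled libraries, with no overlap. It rose by a log2 fold change of 2.17 ± 0.45 (adjusted p = 0.00381), and the call was lost with limma-voom (adjusted p = 0.0518) and without KO replicate 1 (adjusted p = 0.306), and DESeq2 gave no adjusted p. Of the defining astrocyte markers, *Aldh1l1* and *Aqp4* had at most 3 counts in any library, and *Gfap*, *S100b* and *Hepacam* were not analysed here. Among the other astroglial markers, *Sparcl1* had 9 and 5 counts in WT against 14 and 8, and *Gjb6* had 0 and 1 against 4 and 2. *Aldoc* went the other way, with 38 and 35 against 16 and 19, and *Mt3* had at most 2 counts in any library. The median log2 fold change of the glutamate genes was 0.20.

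The start regions of the members differ in sequence, and the window poorest in CG dinucleotides is shown as an example. RefSeq promoter windows, from 250 bases before to 50 after an annotated start (GRCm38.p6), were read for 8 of the 10 genes, with 9 windows in all. The window of *Slc1a3* (chr15:8710758-8711057, minus strand) is printed 5′ to 3′ along the gene, with CG dinucleotides in capitals.
Slc1a3: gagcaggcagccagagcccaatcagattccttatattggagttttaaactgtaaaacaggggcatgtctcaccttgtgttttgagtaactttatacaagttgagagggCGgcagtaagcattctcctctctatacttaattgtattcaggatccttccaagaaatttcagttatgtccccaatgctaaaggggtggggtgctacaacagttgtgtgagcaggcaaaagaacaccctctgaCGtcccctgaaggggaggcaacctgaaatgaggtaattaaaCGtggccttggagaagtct

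The ratio of observed to expected CG dinucleotides was 0.197 in the *Slc1a3* window, beside a median of 0.384 over 32851 windows. *Fabp7* had 0.276, *Ptn* 0.297, *Vim* 0.421, *Hmga2* 0.544, *Nes* 0.702 and *Ddah1* 0.712, and the windows of *Prom1* had 0.211 and 0.410. Neither end was unusual, since 28.2% of all windows lay below that of *Slc1a3* and 28.1% above that of *Ddah1*. The letters TATAAA, on either strand, were found in the windows of *Vim* and *Slc1a3*, beside 13.6% of all windows. GTGGGAA, the core bound by the Notch effector Rbpj, and AACAAAG, a core bound by Sox factors, were found on either strand in 0 of the 9 windows, beside 6.4% and 5.9% of all windows. A match in a window is a description of letters and does not show binding, and no match says nothing about these factors elsewhere.

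*Ddah1* (chromosome 3, 145758675 to 145894277) had the smallest p among the members. It encodes dimethylarginine dimethylaminohydrolase 1, which breaks down methylated arginines that inhibit nitric oxide synthases. It had 23 and 29 counts in WT against 41 and 44 in the KO-labelled libraries, or 69.7 and 81.0 CPM against 109 and 153 CPM. Both KO-labelled libraries were above both WT libraries, and the means were 75.3 ± 8.0 and 131 ± 31 CPM. The log2 fold change was 0.77 ± 0.29, or 1.70-fold, with an interval from 0.18 to 1.36 that is not corrected for the number of genes. After correction the adjusted p was 0.174, and over all alternatives tried it ranged from 0.125 to 0.949. The value stayed between 0.53 (without KO replicate 2) and 1.01 (without KO replicate 1), and it was 0.66 among the male libraries. A ribosomal protein pseudogene, *Rpl36a-ps2*, lies inside *Ddah1* on the same strand and had 1037 and 1177 counts in WT against 946 and 785 in the KO-labelled libraries. How reads of overlapping genes were assigned is not stated.

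Other genes of arginine methylation and nitric oxide synthesis were not called (0 of 4 tested, 10 listed, median log2 fold change -0.04). *Prmt1*, the main arginine methyltransferase of the cell, had 155 and 147 counts in WT against 139 and 83 in the KO-labelled libraries (-0.41 ± 0.18, adjusted p = 0.284). *Prmt5*, which methylates arginines symmetrically, had counts of 22 and 25 against 33 and 25 (0.35 ± 0.31, adjusted p = 0.689). The nitric oxide synthase gene *Nos3* had at most 2 counts in any library.

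*Ptn* (chromosome 6, 36714929 to 36810220) encodes pleiotrophin, a secreted heparin-binding growth factor. It had 15 and 7 counts in WT against 15 and 7 in the KO-labelled libraries, the same counts in both groups. With depth taken into account, the means were 32.5 ± 18.3 and 32.1 ± 11 CPM. The fitted log2 fold change was 0.04 ± 0.48 (interval -0.93 to 1.01, adjusted p = 0.982), and it was -0.01 with the replicate block. Replicate 1 had more counts than replicate 2 in each group.

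*Mdk*, which encodes midkine, the only other member of the pleiotrophin family, fell. Its 448 and 440 counts in WT against 346 and 266 in the KO-labelled libraries correspond to 1293 ± 91 and 922 ± 3 CPM. The log2 fold change was -0.49 ± 0.13 (adjusted p = 0.0373), and the adjusted p ranged from 0.0741 to 0.334 when a library was left out and was also above the threshold in 5 of the other 12 alternatives. It was the only gene called among the 4 tested of 11 listed receptors, partners and relatives of pleiotrophin, whose median log2 fold change was 0.10. The receptor phosphatase gene *Ptprz1*, named here after its value was seen, had 31 and 53 counts against 58 and 44.

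*Hmga2* (chromosome 10, 120361275 to 120476469) encodes an architectural chromatin protein of fetal stem cells that is a target of let-7 microRNAs. It had 21 and 34 counts in WT against 30 and 27 in the KO-labelled libraries. Both KO-labelled libraries lay within the range of WT, at 79.7 and 93.8 CPM between 63.6 and 94.97 CPM. Its log2 fold change was 0.11 ± 0.31 (interval -0.52 to 0.74, adjusted p = 0.919), and without WT replicate 1 it was -0.15. The antisense transcripts annotated in its locus, *1700006J14Rik* and *9230105E05Rik*, had at most 7 counts in any library.

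The other high mobility group genes and the genes of the LIN28 and let-7 axis had mostly negative values. Of 11 tested (14 listed), 0 were called, but 9 had log2 fold changes below 0, with a median of -0.38 beside -0.01 over all genes, and 8 had both KO-labelled libraries below both WT libraries, beside the 20.8% given above. *Hmgn2*, encoding a nucleosome-binding protein, had 250 and 248 counts in WT against 187 and 160 in the KO-labelled libraries (-0.46 ± 0.16, adjusted p = 0.116). *Hmgb2*, encoding a chromatin protein of dividing cells, had counts of 177 and 156 against 117 and 118 (-0.44 ± 0.18, adjusted p = 0.234). *Hmga2* itself, with a value above 0, was thus not among the lower ones. The difference between *Hmga2* and its relatives was not tested. *Hmga1* and *Hmga1b* are near-identical and can exchange reads.

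**Figure D2:**
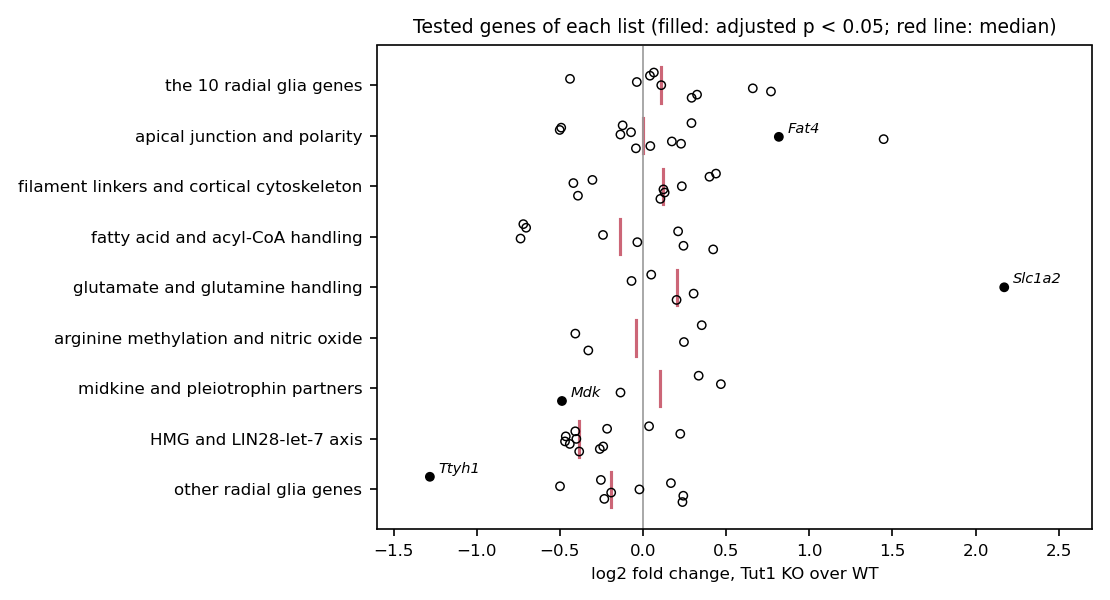
Log2 fold change, Tut1 KO over WT (horizontal axis), of every tested gene among the 10 radial glia genes and 8 lists of related genes (rows). Filled points passed an adjusted p of 0.05, open points did not, and red lines are medians. Of the related genes, *Fat4* and *Slc1a2* are filled above 0 and *Mdk* and *Ttyh1* below 0, while none of the radial glia genes is filled and the HMG and LIN28-let-7 genes have their median at -0.38.

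Of the further radial glia genes, 9 of 15 were tested and 1 was called. *Ttyh1*, encoding a membrane protein of neural stem cells, had 40 and 59 counts in WT against 21 and 18 in the KO-labelled libraries, and fell by 1.28 ± 0.30 on the log2 scale (adjusted p = 0.0108). The call was lost with DESeq2 and without WT replicate 2, KO replicate 1 or KO replicate 2 (adjusted p up to 0.312 when a library was left out). The median of this list was -0.19. Over the 8 related lists together, 4 of 62 tested genes were called, 2 higher and 2 lower, or 6.45% beside 2.06% of all genes tested.

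The size of the differences that these libraries leave possible varied among the members. The intervals of 5 of the 9 tested members (*Nes*, *Vim*, *Prom1*, *Cdh2* and *Hmga2*) lay within a 2-fold change in both directions, and those of *Fabp7*, *Ptn*, *Ddah1* and *Dbi* did not leave out a rise of 2-fold. No member's interval reached a fall of 2-fold except that of the untested *Slc1a3*. A p above the threshold does not show that the levels were equal, and the intervals were widest for *Fabp7* and *Slc1a3*, the genes with the fewest counts.

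**Figure D3:**
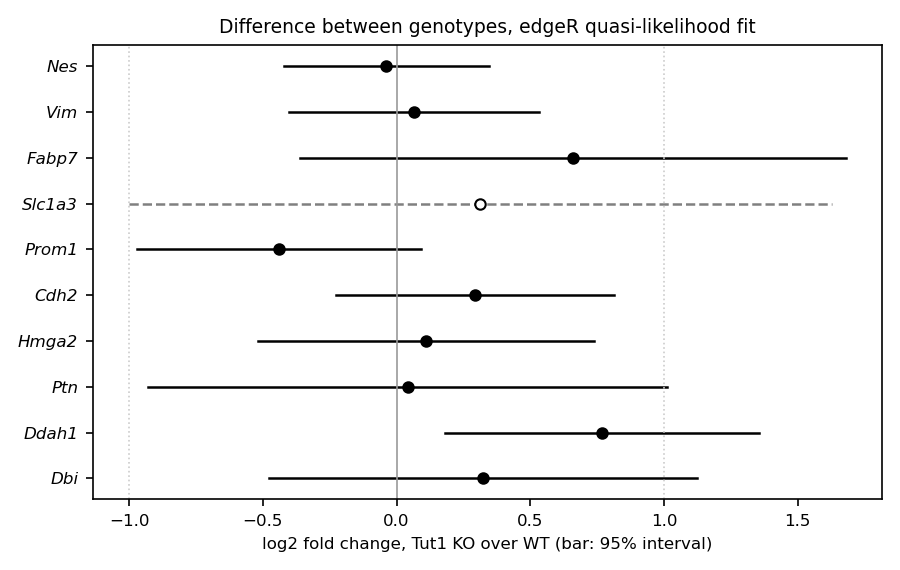
Log2 fold change, Tut1 KO over WT (horizontal axis), of each gene with its 95% interval from the edgeR quasi-likelihood fit. Filled points are the 9 tested genes, the open point with a broken bar is *Slc1a3* fitted without the filter, and dotted lines mark a 2-fold change. The interval of *Ddah1* (0.18 to 1.36) lies above 0 before correction for the number of genes, and those of the others include 0.

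**Figure D4:**
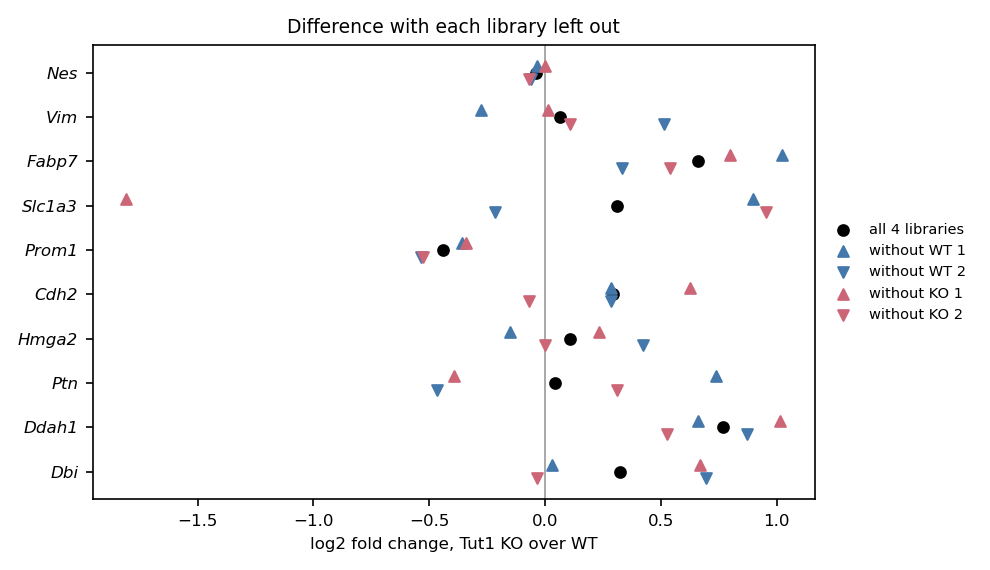
Log2 fold change, Tut1 KO over WT (horizontal axis), of each gene with all 4 libraries (black circles) and with each library left out in turn (blue for WT, red for KO, triangles up for replicate 1 and down for replicate 2). *Ddah1* and *Fabp7* stay above 0 and *Prom1* below it, *Nes* stays between -0.07 and 0.00, and the points of the other 6 genes lie on both sides of 0.

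The summed level of the 10 genes was close in all libraries. It was 1021 and 1131 CPM in WT and 1092 and 1240 CPM in the KO-labelled libraries, and the groups overlapped. In a bulk sample, fewer cells of a type and less RNA per cell cannot be told apart, and a level kept in the tissue does not show that the number of radial glia was kept. By staining at this stage, the study found cells with Pax6, Dcx or Tbr2 (the product of *Eomes*) similarly numerous in both genotypes.

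Markers of several other cell types differed between the same libraries. The 14 neuronal markers summed to 936 and 919 CPM in WT and 1773 and 1723 CPM in the KO-labelled libraries. Of 11 tested, all had log2 fold changes above 0, and *Mapt* (1.83 ± 0.22, adjusted p = 8.85e-07) and *Dcx* (1.17 ± 0.24, adjusted p = 0.00461), both encoding microtubule-associated proteins of neurons, were called. *Rbfox3*, the marker with the highest level in WT, was not (0.58 ± 0.21, adjusted p = 0.149). *Nefl* was at 0 in all libraries. The 6 pallium markers summed to 1727 and 1424 CPM in WT and 776 and 893 CPM in the KO-labelled libraries, with *Lhx2* the only one called of 4 tested. *Lhx2* alone made up 1054 and 760 CPM of these sums in WT and 282 and 368 CPM in the KO-labelled libraries.

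Intermediate progenitor markers summed to 270 and 182 CPM in WT and 308 and 351 CPM in the KO-labelled libraries. Of 3 tested, 0 were called, and *Eomes*, which defines these cells, had 55 and 45 counts against 79 and 66 (0.59 ± 0.24, adjusted p = 0.224). Microglia markers summed to 96.9 and 106 CPM in WT and 409 and 337 CPM in the KO-labelled libraries, with 4 of 4 tested genes called higher. Of these, *Cx3cr1*, *Aif1* and *Csf1r* had log2 fold changes of 2.33, 2.02 and 1.39, while the defining complement genes *C1qa*, *C1qb* and *C1qc* had at most 5 counts in any library. Without KO replicate 1 these 3 genes no longer passed (adjusted p = 0.0741, 0.259 and 0.328), and *Csf1r* was also lost without WT replicate 1 (0.0574) or KO replicate 2 (0.0616), with DESeq2 (0.282) and with thinning (0.0549).

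Mesenchyme markers summed to 103 and 268 CPM in WT and 476 and 320 CPM in the KO-labelled libraries, and *Col1a2* was called higher (2.12 ± 0.47, adjusted p = 0.00742), whereas *Col1a1* was not (1.002 ± 0.29, adjusted p = 0.0602). *Col1a1* was called in 5 of the 12 alternatives that kept all libraries (adjusted p = 0.0222 with limma-voom), and its value was 0.44 without WT replicate 1 and 1.98 without WT replicate 2 (adjusted p = 0.000117). The GABAergic markers summed to 0 and 44.7 CPM in WT against 143 and 90.3 CPM, and *Dlx1*, with 0 and 8 against 34 and 14 counts, was called higher (adjusted p = 0.00494). *Gad2*, with 0 and 8 against 16 and 11 counts, was not called (adjusted p = 0.142). *Dlx2* and *Dlx5* had at most 2 counts in any library. Endothelial markers summed to 93.9 and 109 CPM in WT and 170.1 and 170.2 CPM in the KO-labelled libraries. Of 2 tested, 0 were called, with *Flt1* at 17 and 16 counts against 26 and 19. Red cell markers had 1 of 5 called, the embryonic globin gene *Hbb-bh1* (lower, -1.80 ± 0.46, adjusted p = 0.0279), while 3 of the 5 were above 0. *Hba-a1* was not called (0.24 ± 0.17, adjusted p = 0.573), and the embryonic globin gene *Hba-x*, with 15 and 24 against 43 and 36 counts, had a value opposite to that of *Hbb-bh1* (1.07 ± 0.31, adjusted p = 0.0563). Cajal-Retzius markers were too low to test, with *Trp73* at 2 and 1 counts against 6 and 2, and of the astroglial markers *Aldoc* alone was tested (-0.998 ± 0.32, adjusted p = 0.0996). Several of these genes missed the threshold when a library was left out, in fits that called as few as 3 genes in all. *Mapt* kept its call in each of them. *Dcx* missed it without KO replicate 1 (adjusted p = 0.160) or KO replicate 2 (0.0899), and with DESeq2 (0.153), while its log2 fold change stayed between 1.10 and 1.22 when a library was left out. *Col1a2* was lost with limma-voom (0.0872) and without WT replicate 1 (0.127), KO replicate 1 (0.347) or KO replicate 2 (0.0840), with log2 fold changes from 1.69 without WT replicate 1 to 2.77 without WT replicate 2. DESeq2 gave no adjusted p for *Col1a2*, *Dlx1*, *Cx3cr1*, *Aif1* and *Hbb-bh1*. *Dlx1* was lost without the same libraries (adjusted p = 0.0947, 0.507 and 0.0735). The log2 fold change of *Dlx1* was 1.66 without WT replicate 1. It was 7.57 without WT replicate 2, the only WT library with counts of it. That fit compares with a WT count of 0 and cannot show whether the call is stable. With all 4 libraries *Hbb-bh1* was at -1.80, and its value ran from -3.06 without KO replicate 2 (adjusted p = 0.0899) to -0.92 without WT replicate 2 (adjusted p = 0.565). Its adjusted p was 0.630 without KO replicate 1 and 0.0564 with thinning. The part of these cells in the values of the 10 genes was not tested. Vimentin is also made by mesenchyme and endothelium, N-cadherin by neurons, and pleiotrophin by several of these cells.

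**Figure D5:**
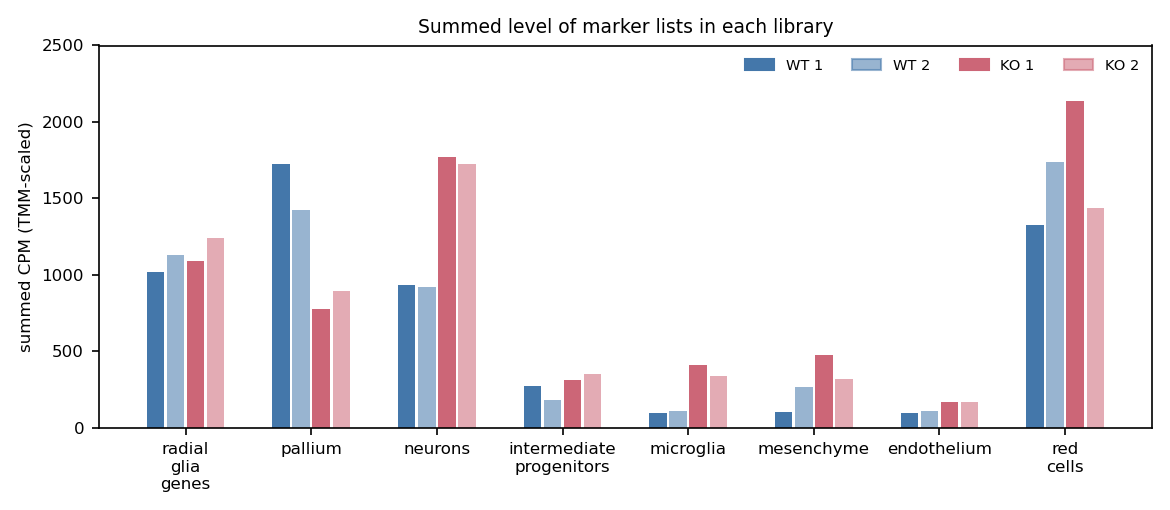
Summed level in CPM on TMM-scaled library sizes (vertical axis, starting at 0) of the 10 radial glia genes and of marker lists of 7 tissues or cell types, with 1 bar for each library (blue for WT, red for KO, dark for replicate 1 and light for replicate 2). The radial glia genes lie between 1021 and 1240 CPM with overlapping groups, and the groups also overlap for red cells. Both KO libraries lie below WT for the pallium and above it for neurons, intermediate progenitors, microglia, mesenchyme and endothelium.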

How the data were processed

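Raw read counts of 4 libraries were used as the authors deposited them. The study aligned long reads with minimap2 to the Ensembl mouse transcriptome (GRCm38 per the labels) and used FLAIR. How reads of overlapping or similar genes were counted, and whether strand was used, is not given in the sources used here. Positions are those of GENCODE M21 on GRCm38, which matched 16436 identifiers. Near-identical copies (at least 90% identity over 50% of the transcript, blastn 2.17.0) were found for *Dbi* (*Gm12222*) and *Hmga2* (*Gm38158*), and neither was analysed here.

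The two-sided quasi-likelihood test of edgeR 4.0.16 was run in R 4.3.3, without covariates, on genes that filterByExpr kept (minimum count 10, minimum total 15), with TMM scaling and Benjamini-Hochberg adjustment over the 5878 genes tested. The fit had 37.5 prior degrees of freedom. Intervals, of 95% confidence, are the log2 fold change ± t times its SE. Replicates differed by more than counting noise (chi-square per degree of freedom 1.50 in WT and 1.43 in KO) and each counted as 1 sample.

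The 10 genes, the lists and the tests were chosen with earlier results of these data known. Named beside the 10 genes and *Tut1* were, from each related list, the genes called or else the 2 with the smallest p, and from each marker list the most abundant gene and those called, at most 3. Others, such as *Emx1*, *Emx2*, *Pax6*, *Hba-x*, *Xist* and markers with few counts, were added with their values in view. Some items, a marker and a promoter among them, are not reported here. Alternatives were median-of-ratios size factors, scaling by totals alone, testing unfiltered genes or those with 10 counts in 2 libraries, DESeq2 1.42.0, limma-voom (limma 3.58.1), the bias-adjusted quasi-likelihood, the replicate number as a block, thinning to the smallest library, removal of trends on transcript length and GC content, and leaving out each library, when the lone library was taken to have the spread of the other group.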

Additional observations from a re-analysis of the deposited data

How the results depend on the processing

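The count of the 10 genes called was 0 under each of the 16 alternatives, with the smallest adjusted p among them between 0.125 and 0.949. The count of members whose groups did not overlap was 3, and again 3 with thinning, total counts only and median-of-ratios size factors, the alternatives for which it was computed. *Fabp7*, *Prom1* and *Ddah1* kept their direction under the 16 alternatives, with *Fabp7* between 0.33 and 1.02. Signs changed in 14 of 158 alternative values, in the other 7 members. With total counts only and with thinning *Nes* was 0.025 and 0.038, with thinning *Vim* was -0.0065, with limma-voom *Slc1a3* was -0.019, and with the replicate block *Ptn* was -0.0091, or -0.045 with the GC trend removed as well. When each library was left out in turn, *Vim* ranged from -0.28 to 0.51, *Slc1a3* from -1.81 to 0.95, *Cdh2* from -0.070 to 0.63, *Hmga2* from -0.15 to 0.42, *Ptn* from -0.47 to 0.74, *Dbi* from -0.034 to 0.70, *Acsl5* from -1.29 to 0.20 and *Hba-a1* from -0.18 to 0.55. The cause of these changes of sign was not tested.

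The count of all genes called, 121, was 12 with DESeq2 and 76 with the replicate block, and ranged from 3 (without KO replicate 1) to 108 when a library was left out. It was 75 without WT replicate 1 and 35 without KO replicate 2. Of the genes called, 67.8% were higher in the KO-labelled libraries, and 81.4% with total counts only. Libraries with the same replicate number showed little shared difference (correlation of replicate differences across genes -0.061). The labels do not say whether such libraries were paired, and the correlation cannot settle it. The block took away the call of *Fat4* and *Mdk* but changed none of the 10 genes' calls. Reads of near-identical copies could not be added, since neither copy was analysed here. For depth in counts, which cover only a small part of the reads, 1 count was worth 2.66 to 3.47 CPM. *Fabp7* and *Slc1a3* rested on 1 to 12 counts per library.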
